A study of Rattus norvegicus with 24 samples.

Results

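The blood transcriptome of rats that received lipopolysaccharide (LPS) while fed oat beta-glucan of low molecular weight, G2, was compared with that of LPS-injected rats fed the control diet. The arrays were chosen by their titles. The 4 arrays of rats on the G2 diet with LPS injection (LPS-G2) and the 4 of rats on the control diet with LPS injection (LPS-G0) are 8 of the 24 arrays of the series. Each array held total RNA from the whole blood of a single rat in the Cy3 channel, next to a common reference in the Cy5 channel. The labels call the reference a pool from all participating rats, whereas the study's methods describe equal amounts of RNA from rats of each group that were not themselves put on arrays. Every value below is the log2 ratio of Cy3 over Cy5, so that a value of 0 stands for the level of that pool, and a difference of 1 between groups stands for 2-fold.

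The animals were male Sprague Dawley rats, 8 weeks old at the start and fed for 6 weeks. LPS of E. coli was injected into the tail vein 2 times at 10 mg per kg of body weight to induce enteritis, and rats without LPS received saline. Of the other 4 groups of the series, 3 are used here for comparison: LPS-G1, LPS-injected rats fed the oat beta-glucan of high molecular weight at the same dose, C-G2, rats on the G2 diet without LPS, and C-G0, rats on the control diet without LPS. The replicates are separate rats by their labels. LPS-G0 replicates 3 and 4 carry LPS injection in the title and source name but "control" in the field on inflammation induction, so the results were also computed without them. The arrays lay on 3 slides, and LPS-G0 had 2 of its arrays on slide 1 while LPS-G2 had 2 on slide 3.

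Beta-glucans are glucose polymers of cereal and fungal cell walls. Dectin-1 and complement receptor 3 on neutrophils, monocytes and macrophages bind them, and Dectin-1 signals through Syk and Card9. LPS is recognised by Toll-like receptor 4 with its partners Cd14 and MD-2, and blood leukocytes answer it through NF-kB and interferon regulatory factors. Blood RNA is a mixture of leukocyte, reticulocyte and platelet RNA, so fewer cells of a type and less RNA per cell cannot be told apart in these samples.

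Of 30367 probes, 9703 were tested, namely those whose Cy3 signal was well above background on each of the 4 arrays of LPS-G2 or of LPS-G0. They represent 7471 genes. Both groups were bright for 8732 of them, while 604 passed through LPS-G0 alone and 367 through LPS-G2 alone, and the probes of both these kinds had to differ in brightness. Each of the 8 arrays had between 10276 and 13491 bright probes, and no probe was saturated. The median SD of a probe between rats was 0.21 in LPS-G2 and 0.219 in LPS-G0. Over the tested probes, which share the same reference, the log2 ratios of an array correlated with those of the other arrays of its group at a median of 0.12 to 0.201 in LPS-G2 and of 0.342 to 0.572 in LPS-G0. With 4 arrays per group, the precision of every value is limited by their number.

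Transcripts of neutrophils and of phagocyte function, such as S100a8, Padi4, Lrg1 and Lyz2, were higher in LPS-G2 than in LPS-G0, by 0.72 to 0.92 on the log2 scale. Transcripts of cell division such as Ube2c, and the neighbouring genes Arpc2 and Pnkd, were lower, by between 1.14 and 1.83. No difference passed the correction for multiple testing. Limma called 0 of 9703 probes (0%) when a call needed both an adjusted p under 0.05 and a difference of 2-fold or more, and the lowest adjusted p was 0.215. Before adjustment, 23 probes combined a p under 0.05 with a difference of 2-fold or more, 8 of them higher (0.0824%) and 15 lower (0.155%). Whatever the fold, 848 probes had an unadjusted p under 0.05, 261 of them higher and 587 lower. Taking the brightest probe of each gene, 241 genes (3.23%) were higher and 464 (6.21%) lower at that threshold, and the groups did not overlap for 250 genes that were higher (3.35%) and 628 that were lower (8.41%). The 464 became 224 to 303 when LPS-G2 replicate 2 or 4 or LPS-G0 replicate 1, 2 or 4 was left out. The median difference over all genes was -0.01. From the Cy3 channel alone, without the reference, more genes were higher than lower at that threshold, 189 against 103, so the balance of directions changed with the scaling. At 2-fold, Cy3 alone gave 9 probes higher and 22 lower, and background correction by normexp gave 0 and 4.

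The probes behind 4 of these genes are printed because the results on them turn on single 60-base sequences; they lie on the plus strand of rat assembly rn4 as the array design gives them. The probe of S100a8, a calcium-binding protein that forms calprotectin with S100a9, covers chr2:182962328-182962387. That of Ube2c, the ubiquitin-conjugating enzyme of the anaphase-promoting complex, is placed within chr3:155802226-155802557, a span of 332 bases, so that its 60 bases are not contiguous on the genome. That of Arpc2, a subunit of the actin-nucleating Arp2/3 complex, is placed within chr9:73580952-73582640, a span of 1689 bases. That of Pnkd, mutations of which cause a movement disorder, covers chr9:73613735-73613794, at higher coordinates on the same chromosome.
S100a8: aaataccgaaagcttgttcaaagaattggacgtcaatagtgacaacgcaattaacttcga
Ube2c: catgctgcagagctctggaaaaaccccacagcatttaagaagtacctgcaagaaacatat
Arpc2: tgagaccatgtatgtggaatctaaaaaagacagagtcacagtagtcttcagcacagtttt
Pnkd: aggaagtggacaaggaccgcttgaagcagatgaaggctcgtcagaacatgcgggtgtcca

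Neutrophil transcripts were higher in LPS-G2 for every marker that could be tested. Of 26 neutrophil markers, 7 were tested, and all 7 lay above 0 with a median difference of 0.65 beside -0.01 over all genes. At an unadjusted p under 0.05, 5 were higher, beside 3.23% of all genes. None passed the adjusted test. For S100a8, the log2 ratio was 0.60, -0.37, 0.88 and -0.17 on LPS-G2 replicates 1 to 4, and -1.03, -0.48, -0.39 and -0.84 on LPS-G0 replicates 1 to 4. Every LPS-G2 rat lay above every LPS-G0 rat, but LPS-G2 replicate 2 and LPS-G0 replicate 3 nearly touched. The difference was 0.92 (standard error 0.26, limma adjusted p = 0.563). Within slide 2, which held 1 array of each group, it was 0.02, against 1.35 within slide 1 and 1.19 within slide 3. Padi4, which makes the citrullinated histones of neutrophil extracellular traps, had log2 ratios of 0.26, -0.19, 0.56 and -0.03 in LPS-G2 and of -0.58, -0.54, -0.62 and -0.56 in LPS-G0. The 4 LPS-G0 rats were almost equal, and all 4 LPS-G2 rats were above them, by 0.72 on average (standard error 0.17). The antimicrobial peptide gene Camp was higher by 0.65 and the G-CSF receptor gene Csf3r by 0.59, and for both the groups overlapped. The chemokine receptor gene Cxcr2 had a difference of 0.38, not at an unadjusted p under 0.05. S100a9, looked at because it pairs with S100a8 and not chosen by the naming rule, had a difference of 0.71.

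The defining granule genes of neutrophils were mostly too dim to be measured. Elane, Prtn3, Ctsg, Ltf, Cxcr1 and Mmp9 were well above background on no array of the 8, Mpo on 1 and Mmp8 on 1. All 7 tested markers were bright on all 8 arrays. Their mean log2 ratio was between -0.20 and 0.68 on the LPS-G2 arrays and between -0.62 and -0.14 on the LPS-G0 arrays. The groups thus overlapped, with LPS-G2 replicates 1 and 3 high and replicates 2 and 4 lower. The median difference stayed above 0 without each LPS-G2 array, between 0.51 and 0.82, and was 0.59 without LPS-G0 replicates 3 and 4.

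**Figure D1:**
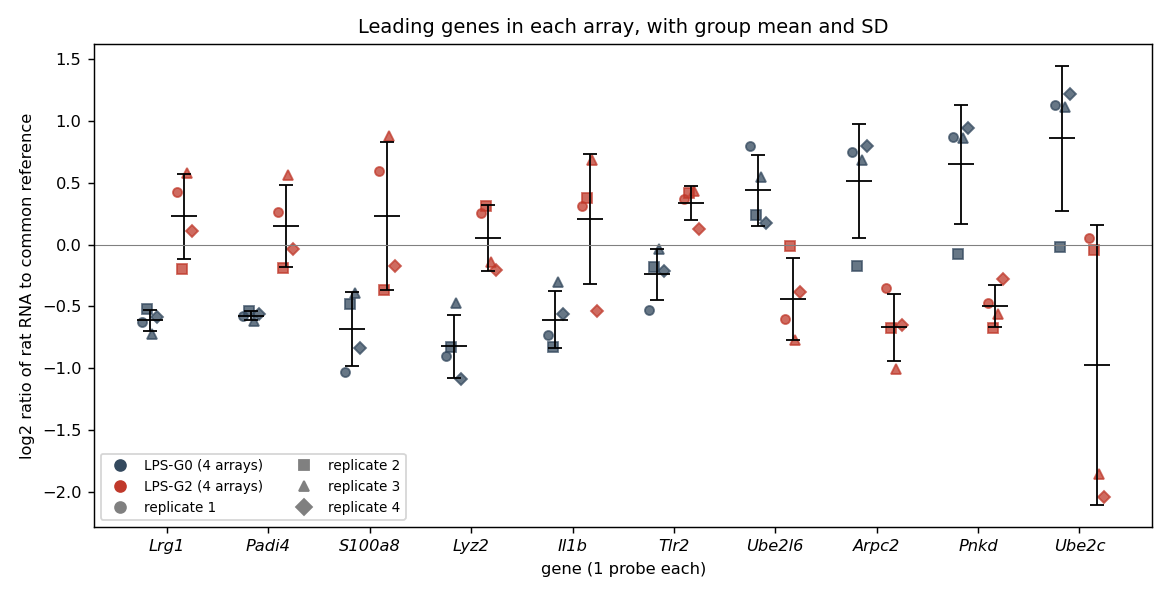
Log2 ratio of rat RNA to the common reference (y axis) on each array of LPS-G0 (dark) and LPS-G2 (red), n = 4 each, for 10 genes described in the text, with marker shape for the replicate number and black bars for group mean and SD. For Padi4 the LPS-G2 arrays lie between -0.19 and 0.56 and the LPS-G0 arrays between -0.62 and -0.54, while for Il1b 1 LPS-G2 array lies among the LPS-G0 arrays and for Ube2c 1 LPS-G0 array among those of LPS-G2.

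The 12 named genes that were higher in LPS-G2 had the smallest unadjusted p among genes bright on all 8 arrays with at least a 1.5-fold difference and no overlap, so their lack of overlap is set by the rule. Apart from S100a8 and Padi4 they were Lrg1, Steap4, Dgat2, Pla2g7, Msrb1, S100a4, Gng10, Nudt4, Arap3 and Lgals3, with differences between 0.65 and 0.86. Lrg1, an acute-phase glycoprotein also stored in neutrophil granules, had log2 ratios of 0.42, -0.20, 0.58 and 0.11 in LPS-G2 and of -0.63, -0.52, -0.72 and -0.58 in LPS-G0. Its difference of 0.84 (standard error 0.18) had the smallest unadjusted p among the genes that were higher. Steap4, a metalloreductase induced by inflammation, was higher by 0.75, and Dgat2, which makes triglycerides, by 0.78. Pla2g7, which inactivates platelet-activating factor, was higher by 0.77, with 0.21, 0.04, 0.75 and -0.21 in LPS-G2 and -0.74, -0.40, -0.59 and -0.54 in LPS-G0. Lgals3, a galectin of macrophages, ran from -0.28 to 0.22 in LPS-G2 and from -0.97 to -0.38 in LPS-G0. LPS-G2 replicate 3 held the highest value of the group in most of these genes. Each of the 12 differences, and each of the 12 named genes that were lower, kept its direction within each of the 3 slides and in all 21 alternatives run. Within slides and with arrays left out, the lack of overlap fixes that direction, so there it is no separate support.

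Genes of phagocyte killing and of LPS recognition lay mostly above 0 in the difference of LPS-G2 minus LPS-G0. Of 15 genes of the phagocyte oxidase and granules 8 were tested, with a median of 0.52. At an unadjusted p under 0.05, 4 were higher, beside 3.23% of all genes, and 0 lower. The 4 became 2 without LPS-G2 replicate 3, without LPS-G2 replicate 4 and without both LPS-G0 replicates 3 and 4. Of 37 genes of LPS recognition and Toll-like receptors 14 were tested, 5 were higher and 0 lower, and the median was 0.38. The 5 became 3 without LPS-G2 replicate 1 or LPS-G0 replicate 2, and 2 without LPS-G0 replicate 1. The monocyte list had 15 genes tested, 3 higher and 0 lower, with a median of 0.25, or of 0.18 over the 14 that were bright on all 8 arrays. The 3 were Lyz2, Tlr2 and Fcgr1a. Lyz2 is also counted in the oxidase and granule list and Tlr2 in that of LPS recognition, so these lists are not separate results. Without LPS-G2 replicate 1, LPS-G2 replicate 2 or LPS-G0 replicate 1 that median of 0.25 was 0.13, 0.12 or 0.13, and with normexp 0.14. The mean of the monocyte list ran from -0.10 to 0.14 in LPS-G2 and from -0.40 to -0.06 in LPS-G0, with overlap. None of these genes passed the adjusted test. Lyz2, the lysozyme of phagocytes, had log2 ratios of 0.26, 0.31, -0.14 and -0.21 in LPS-G2 and of -0.90, -0.82, -0.47 and -1.08 in LPS-G0, a difference of 0.87 (standard error 0.29). The lowest LPS-G2 rat stood above the highest LPS-G0 rat. Tlr2, the receptor of bacterial lipoproteins, had 0.37, 0.41, 0.43 and 0.13 against -0.53, -0.18, -0.03 and -0.22, and a difference of 0.58 (standard error 0.16). Here the 4 LPS-G2 rats were all above the reference pool and the 4 LPS-G0 rats all below it. Cd40, the costimulatory receptor of antigen-presenting cells, differed by 0.85, Unc93b1, which carries endosomal Toll-like receptors to their place, by 0.60, Tlr13 by 0.50 and Tlr6 by 0.39. The oxidase subunit genes Ncf1 and Cyba differed by 0.59 and 0.61. The high-affinity IgG receptor gene Fcgr1a differed by 0.61.

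The mean of the 14 genes of LPS recognition lay between -0.03 and 0.08 in LPS-G2 and between -0.37 and -0.16 in LPS-G0, without overlap, and that of the 8 oxidase and granule genes between 0.03 and 0.20 against -0.44 to -0.21. With the slide as a block, the number of LPS recognition genes at an unadjusted p under 0.05 was 2 and the median 0.32. Of the list of beta-glucan receptors and Syk-Card9 signalling, 18 of 29 genes were tested, with a median of 0.22. At that threshold 3 were higher, beside 3.23% of all genes, and 0 were lower. The 3 became 1 without LPS-G2 replicate 1 and 5 without LPS-G0 replicate 4. Of the 18, 2 passed the brightness filter through LPS-G2 alone and 1 through LPS-G0 alone. The 3 were Tlr2 and Tlr6, shared with the LPS list, and Clec4d, a C-type lectin receptor of fungal mannans, with a difference of 0.80 and overlapping groups. Clec4d was bright on 4 LPS-G2 arrays but only 2 LPS-G0 arrays, so it was tested through the group in which it was higher, and with normexp its difference was 0.33. LPS-G0 replicate 2, at 0.31, lay among the LPS-G2 values of Clec4d, which ran from -0.11 to 0.77.

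The promoter of Lyz2 is printed as an example of a phagocyte gene in which letters of the PU.1 and ETS core occur; the 250 bases before its start on assembly GRCr8 of RefSeq are chr7:54798012-54798261, minus strand, with the motif GGAAGT, searched on both strands, in capitals.
Lyz2: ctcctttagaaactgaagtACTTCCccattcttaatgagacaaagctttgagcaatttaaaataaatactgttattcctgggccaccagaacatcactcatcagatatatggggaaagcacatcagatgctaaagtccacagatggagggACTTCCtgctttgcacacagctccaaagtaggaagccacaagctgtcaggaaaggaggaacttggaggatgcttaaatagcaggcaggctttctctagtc
Both matches are on the opposite strand. The motif occurs in the same window of 19.2% of 33469 promoters, in 4 of 12 monocyte genes tested that are in the table and in 2 of 4 neutrophil genes.

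Genes of antigen presentation through MHC class II were higher in LPS-G2 in all 9 tested of 14. Their median difference was 0.42 (0.53 without LPS-G0 replicates 3 and 4). An unadjusted p under 0.05 was found for 3 of the 9, beside 3.23% of all genes that were higher. None passed the adjusted test. Cd74, the invariant chain that guides class II molecules, had log2 ratios of 0.14, -0.18, 0.21 and 0.64 in LPS-G2 and of -0.48, -0.84, -0.42 and -0.52 in LPS-G0. The groups did not overlap, and the difference was 0.77 (standard error 0.31). RT1-Db1, a class II beta chain, differed by 0.58 and RT1-DMb, which helps load peptides, by 0.42, and for each the groups overlapped. LPS-G2 replicate 4 held the highest value for Cd74, RT1-Db1 and RT1-DMb, and without it 0 of the 9 genes had an unadjusted p under 0.05, with the median at 0.33. Without LPS-G0 replicate 2 it was also 0 of 9. With the slide as a block it was again 0 of 9, with a median of 0.38. The mean of the list ran from -0.06 to 0.44 in LPS-G2 and from -0.46 to -0.19 in LPS-G0. Of the 11 tested B cell markers, cells that also carry class II molecules, 7 were above 0 and 0 had an unadjusted p under 0.05. The median of that list was 0.28, its mean lay between -0.39 and 0.26 in LPS-G2 and between -0.29 and -0.02 in LPS-G0, and its part in the class II values was not tested.

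**Figure D2:**
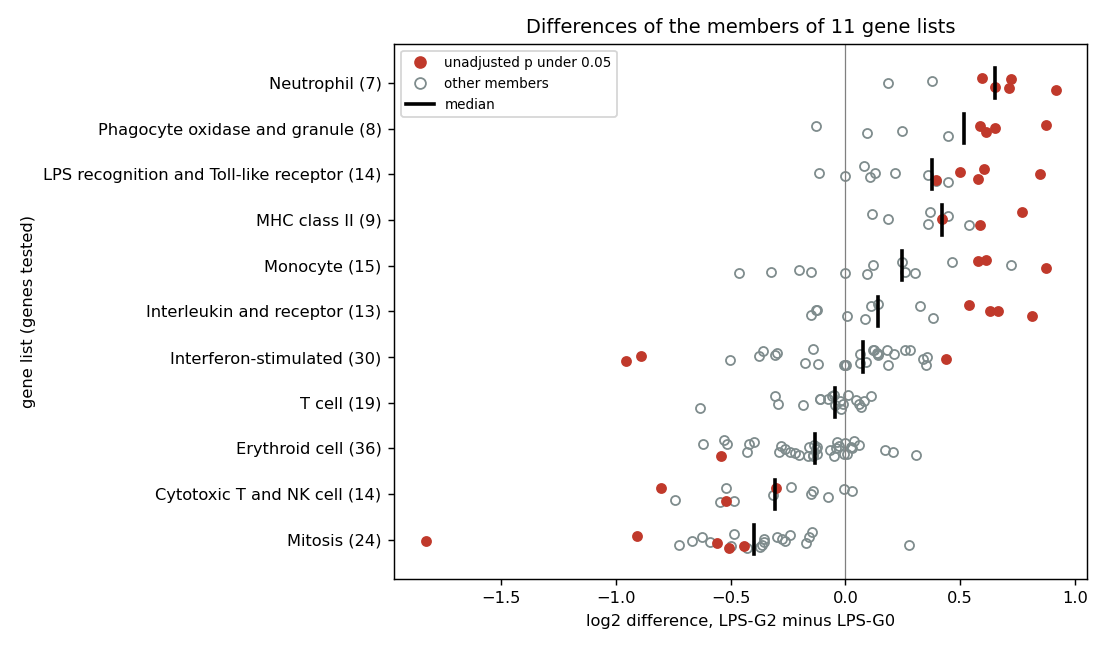
Log2 difference between LPS-G2 and LPS-G0 (x axis) for each tested gene of 11 gene lists (points, red at an unadjusted p under 0.05), with the list median as a black bar and the number of genes tested beside each name. The lists of neutrophil, phagocyte, LPS recognition and MHC class II genes lie mostly above 0 (medians 0.65, 0.52, 0.38 and 0.42) and those of mitosis and cytotoxic cells mostly below (medians -0.40 and -0.31).

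Cytokine genes split by member. Of 54 interleukin and receptor genes 13 were tested, with a median of 0.14. In LPS-G2, 4 were higher at an unadjusted p under 0.05, beside 3.23% of all genes, and 0 lower. Without LPS-G0 replicates 3 and 4, whose labels conflict, 1 of the 13 was higher. The median was 0.05 without LPS-G0 replicate 4, and between 0.24 and 0.31 without LPS-G2 replicate 2 or LPS-G0 replicate 2 or 3. Il1b, the inflammatory cytokine interleukin-1 beta, had log2 ratios of 0.31, 0.38, 0.68 and -0.54 in LPS-G2 and of -0.73, -0.83, -0.30 and -0.56 in LPS-G0. LPS-G2 replicate 4 sat among the control-diet rats, and the difference was 0.81 (standard error 0.25). The genes that damp the same cytokine were higher too, Il1rn, the receptor antagonist, by 0.54 and Il1r2, the decoy receptor, by 0.66, without overlap for either. Il17ra, a subunit of the interleukin-17 receptor, differed by 0.63. Among chemokines, Ccl6 was higher by 0.68 and Ccl20 lower, with 0.10, -0.07, -0.27 and -0.05 in LPS-G2 and 0.48, 0.52, 0.28 and 0.51 in LPS-G0. Cxcl16 had a difference of 1.96 on a probe well above background on 4 LPS-G2 arrays and only 1 LPS-G0 array, and the difference within slide 1 was -0.19.

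Genes of interferon response as a list lay close to all genes. Of 52, 30 were tested, 18 lay above 0, 1 was higher and 2 lower at an unadjusted p under 0.05, shares near the 3.23% and 6.21% over all genes, and the median was 0.08, or 0.01 without LPS-G0 replicates 3 and 4. The median was 0.02 without LPS-G2 replicate 2, 0.03 without LPS-G2 replicate 4, 0.05 without LPS-G0 replicate 4 and 0.04 with the slide as a block. The 2 lower were Irf7, the regulator that amplifies type I interferon, and Isg15, a ubiquitin-like modifier. Irf7 had log2 ratios of -0.71, -0.19, -0.60 and -0.32 in LPS-G2 and of 0.70, 0.76, -0.02 and 0.31 in LPS-G0, a difference of -0.89 without overlap. Isg15 was at -1.16, -0.46, -0.69 and -0.44 against 0.87, 0.69, -0.54 and 0.05, a difference of -0.96 with LPS-G0 replicate 3 among the LPS-G2 rats. Ube2l6, the enzyme that conjugates Isg15 to its targets, had the smallest unadjusted p of the 12 named genes that were lower, which were bright on all 8 arrays and without overlap by the naming rule. Its log2 ratios were -0.60, -0.01, -0.77 and -0.38 in LPS-G2 and 0.79, 0.24, 0.54 and 0.17 in LPS-G0, a difference of -0.88 (standard error 0.19). Stat2, part of the complex that carries the interferon signal, was the 1 that was higher, by 0.44.

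Transcripts of mitosis were lower in LPS-G2. Of 60 mitosis genes 24 were tested and 23 of them lay below 0. The median difference was -0.40, or -0.50 without LPS-G0 replicates 3 and 4. At an unadjusted p under 0.05, 5 were lower, beside 6.21% of all genes, and 0 higher. None passed the adjusted test. The 5 became 3 without LPS-G2 replicate 2 or 3 or LPS-G0 replicate 1, 2 or 4 and from Cy3 alone, and with normexp the median was -0.23. Of the 24, 4 passed through LPS-G0 alone and 1 through LPS-G2 alone, and of the 19 bright on all 8 arrays 18 lay below 0, with a median of -0.37. The mean log2 ratio of the 24 was between -0.15 and 0.05 on the LPS-G2 arrays and between 0.33 and 0.51 on the LPS-G0 arrays, without overlap. Ube2c had the largest of these differences, at -1.83 (standard error 0.45). Its log2 ratios were 0.05, -0.04, -1.85 and -2.04 in LPS-G2 and 1.12, -0.02, 1.11 and 1.21 in LPS-G0. The pair of low values came from LPS-G2 replicates 3 and 4, while LPS-G0 replicate 2 lay at the level of LPS-G2 replicates 1 and 2. The difference was -0.50 within slide 1, -1.15 within slide 2 and -3.16 within slide 3. Cdca3, which acts in mitotic entry, was lower by 0.91, Cdc20, the activator of the anaphase-promoting complex, by 0.56 and Cenpt, a kinetochore protein, by 0.51. For Cenpt the groups did not overlap, and for Cdca3 and Cdc20 they did. By contrast, 25 genes of the G1 to S transition and DNA replication were split, 13 above 0 and 12 below with a median of 0.03, which was -0.03 with the slide as a block and between -0.07 and 0.01 without LPS-G2 replicate 1, 2 or 4 or any 1 LPS-G0 array. Of these, Cdc45, a part of the replicative helicase, was lower by 0.62 and Tyms, the thymidylate synthase, by 0.93, both at an unadjusted p under 0.05. A share of 2 in 25 is near the 6.21% over all genes. Tyms was bright on 4 LPS-G0 arrays but 3 LPS-G2 arrays, so it was tested through the group in which it was higher, and with normexp its difference was -0.51.

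Erythroid transcripts differed little. Of the 36 tested erythroid genes, 28 lay below 0, with a median of -0.13 (-0.09 without LPS-G0 replicate 1), but only 1 was lower at an unadjusted p under 0.05, beside 6.21% of all genes. That gene was Klf1, the erythroid transcription factor, lower by 0.54 without overlap. The mean of the list was between 0.03 and 0.11 in LPS-G2 and between 0.15 and 0.30 in LPS-G0. The summed processed Cy3 signal of these genes was between 1084000 and 1757000 in LPS-G2 and between 1540000 and 2201000 in LPS-G0, and its part in the mitosis values was not tested. The platelet list, with 16 tested genes, had a median of -0.03, and of 0.01 from Cy3 alone.

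The promoter of Cdc20 is printed as an example of a mitosis gene that holds the letters of the cell-cycle element CHR (TTTGAA) and of the NF-Y site (CCAAT), again with the matches in capitals; the 250 bases before its start on GRCr8 are chr5:137255800-137256049, minus strand.
Cdc20: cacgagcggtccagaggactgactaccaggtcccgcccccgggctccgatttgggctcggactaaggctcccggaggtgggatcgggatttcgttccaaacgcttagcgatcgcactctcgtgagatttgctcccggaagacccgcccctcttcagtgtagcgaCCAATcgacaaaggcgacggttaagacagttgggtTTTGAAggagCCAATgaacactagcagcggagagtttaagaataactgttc
Both motifs were searched on both strands. TTTGAA was found in 10 of 20 tested mitosis genes in the table and in 16.2% of all promoters, and CCAAT in 13 of 20 and in 34% of all promoters.

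Transcripts of cytotoxic T and natural killer cells were lower in LPS-G2. Of 27 genes, 14 were tested, 13 lay below 0 and the median was -0.31. At an unadjusted p under 0.05, 3 were lower, beside 6.21% of all genes. None passed the adjusted test, and without LPS-G2 replicate 4 the count at the unadjusted threshold was 0, with a median of -0.24. It was also 0 without LPS-G0 replicate 4, and 1 without LPS-G2 replicate 2, LPS-G0 replicate 1 or LPS-G0 replicate 2, from Cy3 alone and with the slide as a block. Gzmc, a granzyme, had log2 ratios of 0.02, 0.09, -0.36 and -0.80 in LPS-G2 and of 0.63, 0.61, 0.10 and 0.81 in LPS-G0, a difference of -0.80 (standard error 0.33). Gzmk, another granzyme, differed by -0.52 and Klrk1, the activating receptor NKG2D, by -0.30, both with overlap. The mean of the list was between -0.22 and 0.08 in LPS-G2 and between 0.02 and 0.50 in LPS-G0. Of the general T cell markers 19 were tested, with 0 at an unadjusted p under 0.05 and a median of -0.05.

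Lipid mediators and sterol regulation held further genes that were higher in LPS-G2. Of the 16 tested genes of prostaglandin and leukotriene metabolism, 4 were higher and 1 lower at an unadjusted p under 0.05. Over all genes, 3.23% were higher and 6.21% lower. The median of the 16 genes was 0.25, and none passed the adjusted test. Of the 16, 2 passed the brightness filter through LPS-G2 alone, and over the other 14 the median was 0.28. The median of the 16 was 0.15 without LPS-G0 replicate 1, 0.13 with normexp and 0.41 without LPS-G0 replicates 3 and 4. Besides Pla2g7 the higher genes were Tbxas1, the thromboxane synthase, by 0.46, and the annexins Anxa1, a phospholipase inhibitor induced by glucocorticoids, by 0.60 and Anxa2 by 0.63. The lower gene was Ptgir, the prostacyclin receptor, at -0.33. Anxa2 ran from -0.13 to 0.05 in LPS-G2 and from -0.81 to -0.58 in LPS-G0, without overlap. Of 14 tested genes of cholesterol metabolism, 2 were higher and 0 lower, Nr1h3, the sterol receptor LXR alpha, by 0.69 and Srebf2, the activator of sterol synthesis, by 0.47, and both were without overlap. Among immediate-early genes, Sik1, a salt-inducible kinase, was higher by 0.72 and Junb by 0.46. Genes of basic cell functions lay near 0, with a median of 0.07 over 85 cytosolic ribosomal protein genes, 0.07 over 74 genes of oxidative phosphorylation and 0.09 over 40 proteasome genes, and in these 3 lists 1 gene was higher and 2 lower at an unadjusted p under 0.05.

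**Figure D3:**
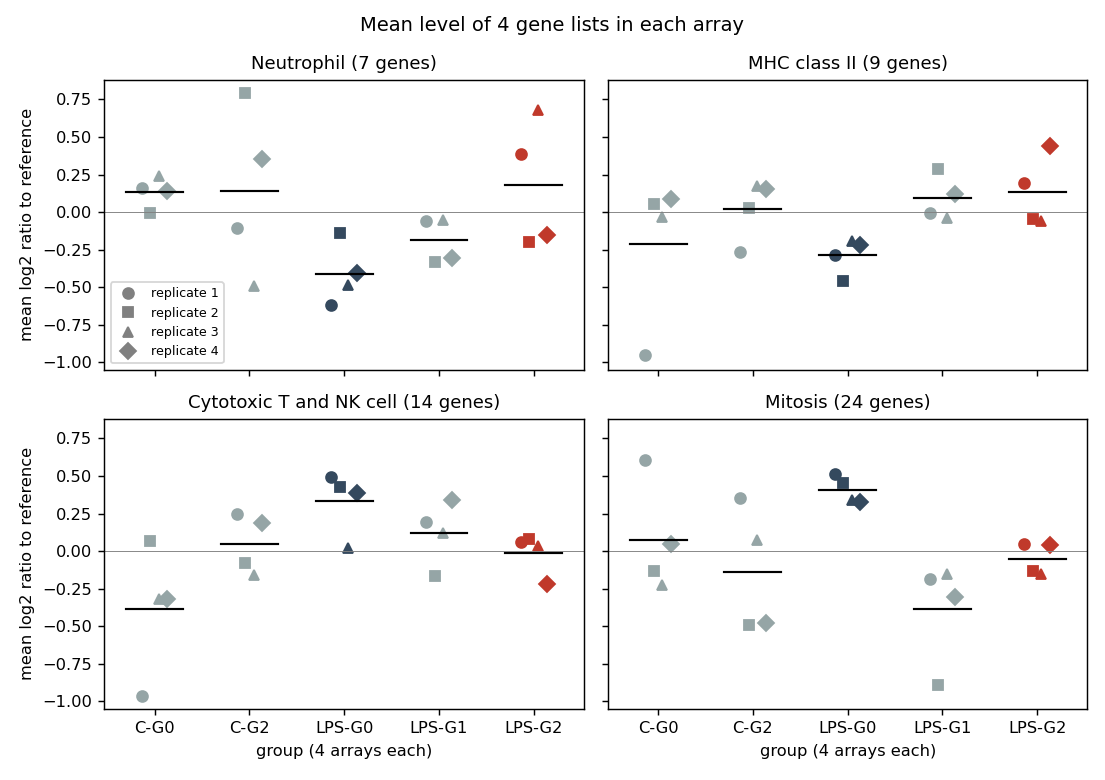
Mean log2 ratio to the reference (y axis) of the tested genes of 4 lists on each array of 5 groups (points, n = 4 each, shape for the replicate number), with group means as lines. LPS-G2 and LPS-G0 do not overlap for MHC class II and mitosis, and overlap for the neutrophil list, where LPS-G2 replicates 1 and 3 lie at 0.39 and 0.68 and replicates 2 and 4 at -0.20 and -0.15, and for the cytotoxic list.

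Arpc2 and Pnkd, which lie near each other on chromosome 9, were lower in LPS-G2 with every array bright. Arpc2 had log2 ratios of -0.35, -0.67, -1.01 and -0.65 in LPS-G2 and of 0.75, -0.18, 0.68 and 0.80 in LPS-G0. Pnkd had -0.47, -0.67, -0.56 and -0.28 against 0.87, -0.07, 0.86 and 0.94. The arrays of LPS-G0 fell into the same order for both, with replicate 2 far below the other LPS-G0 rats and just above the LPS-G2 rats. The difference was -1.18 (standard error 0.31) for Arpc2 and -1.14 (standard error 0.30) for Pnkd. Without LPS-G0 replicates 3 and 4 these were -0.95 and -0.89. Another probe of Pnkd, dim on all 8 arrays, differed by 1.54, in the opposite direction. It ran from -0.16 to 0.80 in LPS-G2 and from -1.70 to -1.02 in LPS-G0, so the lower value of Pnkd rests on its bright probe. Other named genes that were lower were Bud31 and Supt5h, of splicing and transcription elongation, the olfactory receptor genes Olr621 and Olr727, Acbd6, Klk1c3, Chac2 and Lgals12. Their differences lay between -0.87 and -0.59. Olr621 ran from -0.19 to 0.08 in LPS-G2 and from 0.61 to 0.76 in LPS-G0, and Lgals12, a galectin of adipose tissue, from -0.48 to -0.08 and from 0.24 to 0.33.

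Probes of at least 2-fold that were dim on some arrays made up most of the remaining ones at an unadjusted p under 0.05. Fam111a, a protease that restricts viral replication, had 2 such probes, which share 37 of their 60 bases and are not independent. Their differences were -1.29 and -1.71, and all LPS-G0 arrays but only 3 and 2 of 4 LPS-G2 arrays were well above background. On the first of them, LPS-G0 held 1.84, 1.76, 1.30 and 1.09 and LPS-G2 0.30, 0.78, -0.01 and -0.25, without overlap. Xrcc4, of DNA end joining, differed by -1.1 with overlap, and was bright on 2 LPS-G2 arrays. Zfp318 differed by 1.52 on one probe and by -0.01 on its other.

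Cyp2d5 and Cyp2d1, paralogous cytochromes P450, differed by 1.39 and 1.1 on probes that share 55 of 60 bases, so their signals cannot be told apart. Both probes were bright on 4 LPS-G2 but 3 LPS-G0 arrays, so they were tested through the group in which they were higher, and with normexp the differences were 0.56 and 0.36. The ends of the probes are printed to show how little separates them; the part after the shared run is in capitals, on the minus strand of rn4 at chr7:120760436-120760495 and chr7:120769703-120769762.
Cyp2d5: gagccacgtttaataaaccagtcttGAGGC
Cyp2d1: ctgagccacgtttaataaaccagtcttTTG
LPS-G0 replicate 1 lay at -2.83 on the first probe and -2.48 on the second, far below the other 3 LPS-G0 rats, which ran from -0.65 to -0.02 and from -0.52 to 0.23. All LPS-G2 rats lay between 0.08 and 0.59.

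A set of 42 genes was taken from the genes that the study lists for this comparison. It chose them on these arrays, so their direction here is no independent evidence. For some, such as Kcnk2, Gas7 and Usp6nl, the study reports RT-PCR in other rats with the same direction. On their tested probes Gas7 differed by 0.21 and Usp6nl by -0.01. Dim probes of Gas7 differed by 1.76 and 0.02 and that of Usp6nl by 1.13. Of the 42 genes, 9 were tested, 7 of them below 0 and 2 above, with a median of -0.40. At an unadjusted p under 0.05, 4 were lower. Of the 9, 3 passed the brightness filter through LPS-G0 alone, and over the other 6 the median was -0.22. The 4 were Ube2c, Fam111a, Xrcc4 and She, an adaptor protein that differed by -0.40 without overlap on its bright probe. From Cy3 alone that probe gave 0.26, and the other probe of She, dim on all 8 arrays, differed by 1.34, so that the direction of She was not settled. The other 33 were too dim to be tested, and 11 of those were well above background on no array of either group. For 9 genes, dim on all arrays of one group and bright on at least 1 of the other, a fold could only be estimated. It was the mean of the brighter group over the higher of the lowest bright signal and the gene's own signal in the dim group. That mean took in the dim arrays of the brighter group too, so the fold is no strict lower limit. Prodh, the proline dehydrogenase, was an estimated 3.40-fold higher in LPS-G2, where it was bright on 3 of 4 arrays, and bright on 0 of 4 in LPS-G0. Mtus1, a microtubule-associated tumour suppressor candidate, was an estimated 2.42-fold higher on a probe bright on only 1 of 4. Its other probe, bright on 1 LPS-G0 array and no LPS-G2 array, had a difference of -0.78 and overlapping groups. Atg10, an autophagy enzyme, was an estimated 1.86-fold higher and bright on 2 of 4, with log2 ratios that overlapped between the groups. Kcnk2, a potassium channel, was an estimated 1.83-fold lower, bright on 2 LPS-G0 arrays. None of these dim genes entered the limma test.

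The beta-glucans of high and low molecular weight were compared in 1 pair of groups, LPS-G2 against LPS-G1, at the same dose and under the same LPS treatment. Limma called 0 of 9703 probes (0%) between them, with a lowest adjusted p of 0.701. At an unadjusted p under 0.05 there were 608 probes (6.27%), and the 27 of these with at least a 2-fold difference were all higher in LPS-G2. Brightness in LPS-G1 did not enter the filter. Probes bright in LPS-G1 alone were therefore left out, while those bright in LPS-G2 alone were kept. The filter thus favoured probes higher in LPS-G2, and the balance of directions is no result about the diets. The 95% interval of a probe's difference had a median half-width of 0.422. For a typical probe a smaller difference thus left 0 inside the interval, and a missed threshold does not show that G1 and G2 act alike. The named genes with the smallest unadjusted p were Lgals2, Bglap, Cd63, Slc22a4 and Stfa2l3, higher in LPS-G2, and Kmt2a, Gimap4, Smim8, Rbm12 and Cbx3, lower. Lgals2, a galectin, had log2 ratios of -0.04, 0.54, 0.22 and 1.18 in LPS-G2 and of -0.92, -0.46, -0.99 and -1.02 in LPS-G1, a difference of 1.32 (95% interval 0.78 to 1.87). LPS-G0 lay between -0.08 and 0.54. Cd63, a tetraspanin of granules, was at 0.27, 0.52, 0.39 and 0.38 in LPS-G2 against -0.28, -0.12, -0.61 and -0.16 in LPS-G1, a difference of 0.68 (95% interval 0.35 to 1.02). Kmt2a, a histone methyltransferase, ran from -0.53 to -0.12 in LPS-G2 and from 0.10 to 0.52 in LPS-G1. Its difference was -0.61, with an interval that lay below 0. Lgals2, Cd63 and Kmt2a were named by their unadjusted p in this same comparison, among genes bright on all arrays of both groups. The rule also asked for a 1.5-fold difference and no overlap. It thus sets both the lack of overlap and intervals that exclude 0, so neither is separate support.

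For the genes named against LPS-G0, the values of the G1 diet are set beside those of G2, and both comparisons share the 4 LPS-G0 arrays. On the same probes, limma called 96 for LPS-G1 against LPS-G0, 6 higher and 90 lower, where it called 0 for LPS-G2. A call in one comparison alone is no test of the difference between the diets. Probes bright in LPS-G0 alone were tested and those bright in LPS-G1 alone were not. The filter thus favoured lower calls for LPS-G1, and the balance of 6 and 90 is no result about that diet. LPS-G2 minus LPS-G0 and LPS-G1 minus LPS-G0 were 0.84 and 0.23 for Lrg1, 0.72 and 0.26 for Padi4, 0.92 and 0.50 for S100a8, -1.18 and -0.94 for Arpc2, and -1.83 and -2.50 for Ube2c. The direct difference LPS-G2 minus LPS-G1 was 0.61 for Lrg1 (95% interval 0.22 to 0.99), 0.46 for Padi4 (0.11 to 0.82) and 0.42 for S100a8 (-0.13 to 0.96). It was -0.03 for Cd74 (-0.69 to 0.62), -0.07 for Pnkd (-0.70 to 0.56) and 0.67 for Ube2c (-0.27 to 1.61), intervals that include 0 and also differences of more than 0.5. None of these direct differences passed the adjusted test in limma. The genes were named by their difference from LPS-G0, and the same LPS-G2 arrays enter the direct differences, so these are not independent of the choice. By lists, the 7 neutrophil genes had a median difference of 0.42 between LPS-G2 and LPS-G1, 6 of 7 above 0 and 3 at an unadjusted p under 0.05. The 24 mitosis genes had 0.30, with 21 above 0 and 4 at that threshold, and the 36 erythroid genes 0.36, with 29 above 0 and 8 at that threshold. Of the 9 MHC class II genes, 4 were above 0. Over the 85 ribosomal protein genes the median was -0.15, with 5 above 0. For the 14 LPS recognition genes it was 1.6e-05, with 7 above 0. For the 8 oxidase and granule genes it was 0.14, with 6 above 0. Against LPS-G0, the medians of LPS-G2 and LPS-G1 were 0.38 and 0.31 for LPS recognition and 0.52 and 0.39 for oxidase and granules. They were 0.42 and 0.42 for MHC class II and -0.31 and -0.26 for cytotoxic genes. Neutrophil genes had 0.65 and 0.30, and mitosis genes -0.40 and -0.66.

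To see whether the G2 diet went with a different change under LPS than without it, the difference of LPS-G2 minus LPS-G0 was set against C-G2 minus C-G0 in a model of all 24 arrays. Limma called 0 of 9703 probes (0%) for the interaction, with a lowest adjusted p of 0.679. At an unadjusted p under 0.05 there were 567 probes (5.84%), 120 with at least a 2-fold interaction, and the 95% interval had a median half-width of 0.619. Without LPS, C-G2 against C-G0 had 2 probes called and 71 at an unadjusted p under 0.05 and 2-fold. The smallest unadjusted p among the named genes was that of Rmnd5a, a subunit of a ubiquitin ligase, with an interaction of 1.65 (95% interval 0.94 to 2.36). Its log2 ratios were 0.05, -0.11, 0.58 and -0.04 in LPS-G2 and -0.37, -0.06, 0.05 and -0.86 in LPS-G0, while C-G2 had -0.55, 0.02, -0.68 and -0.70 and C-G0 had 1.12, 1.15, 0.79 and -0.06. The difference between diets was 0.43 with LPS and -1.23 without it. Rmnd5a was named by its unadjusted p for the interaction, so an interval away from 0 is set by that choice. For S100a11, a calcium-binding protein, C-G2 lay between 0.49 and 0.88 and C-G0 between -0.66 and -0.27. The difference was 1.12 with an adjusted p of 0.00699 from limma, but LPS-G2 and LPS-G0 overlapped and differed by 0.30. The interaction of S100a11 was -0.82 (95% interval -1.31 to -0.33). S100a11 was named by the same rule as Rmnd5a, so its interval away from 0 is likewise set by the choice.

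The interaction of Gzmc was -1.72 (95% interval -2.78 to -0.66) and that of Pnkd -1.45 (-2.49 to -0.41). That of Gzmk was -1.07 (-1.80 to -0.35). The difference of Padi4 with LPS was 0.72 and without LPS -0.08, an interaction of 0.80 (0.02 to 1.58). These genes were named by their unadjusted p in LPS-G2 minus LPS-G0, which is a part of the interaction. Their intervals are therefore shifted away from 0 by the choice. For the lists, the median differences of LPS-G2 minus LPS-G0 and of C-G2 minus C-G0 were 0.65 and 0.01 for neutrophil genes, 0.42 and 0.35 for MHC class II, -0.40 and -0.27 for mitosis, and -0.31 and 0.56 for cytotoxic genes. For the last, 8 of 14 genes had an unadjusted p under 0.05 for the interaction, beside 5.84% of all probes. The mean of the cytotoxic list varied widely in C-G0, from -0.96 to 0.07, and ran from -0.16 to 0.24 in C-G2. Rats of C-G2 and C-G0 shared no array with those of LPS-G2 and LPS-G0.

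**Figure D4:**
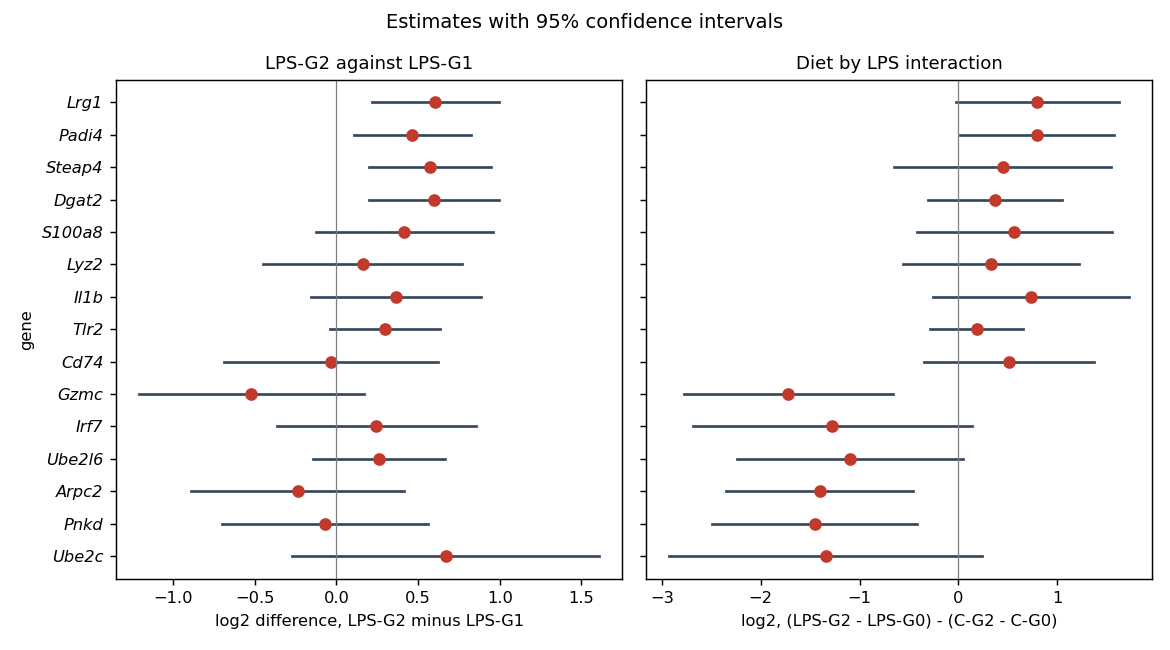
Estimates (points) with 95% confidence intervals (lines) for 15 genes described in the text, LPS-G2 minus LPS-G1 on the left and the diet by LPS interaction on the right, both on the log2 scale. On the left, the intervals of Lrg1 (0.22 to 0.99) and Padi4 (0.11 to 0.82) lie above 0 and that of Cd74 (-0.69 to 0.62) spans it, and on the right those of Gzmc (-2.78 to -0.66) and Pnkd (-2.49 to -0.41) lie below 0. The genes were named by LPS-G2 minus LPS-G0, whose LPS-G2 arrays enter both panels.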

How the data were processed

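Blood RNA was measured on two-color Agilent arrays of 60-base probes, with rat RNA in Cy3 and the pooled reference in Cy5 by the labels. The methods text states the reverse dyes. For 7074 probes bright with either dye on each of the 24 arrays, the SD within groups (log2 scale) had a median of 0.35 in Cy3 against 0.191 in Cy5, and was larger in Cy3 for 97.1% of them, so Cy3 was taken as the rat RNA. The authors deposited processed intensities and log10 ratios of Cy5 over Cy3, made with Agilent Feature Extraction (10.7.3.1 by the submitters' processing notes, 10.10.1.1 by the file headers), with background subtraction and Lowess within each array. Log10 ratios deposited as 0 where both channels are dim pull such probes to no difference. The deposited series table of log10 ratios was identical to the array files in 1511424 of 1511424 values.

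The sign of each ratio was turned and the values put on the log2 scale. Control spots and 679 to 1133 outlier spots per array were left out, and spots of a probe were averaged. Probes whose Cy3 signal was well above background on each array of LPS-G2 or of LPS-G0 were tested with limma 3.58.1 in R 4.3.3 with data.table (version 1.17.8) for reading, two-sided, with 16 arrays of 4 groups in 1 model and 24 arrays for the interaction. The Benjamini-Hochberg adjustment ran over all probes tested, and a call needs an adjusted p under 0.05 and 2-fold. An exact permutation test over 70 arrangements was run for single genes, but its p is not given, since for genes named for a lack of overlap the rule fixes it. The fit was tested on simulated data.

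The brightest tested probe stood for a gene. Named genes were the 12 higher and 12 lower with the smallest unadjusted p (bright on all 8 arrays, 1.5-fold, groups not overlapping), all probes with a symbol at an unadjusted p under 0.05 and 2-fold, up to 4 genes per list, the 42 genes taken from the study, and 5 genes per direction of the other contrasts. Some genes that meet this rule are not reported here. Members, lists and this rule were chosen with earlier results of these data known. Probe positions were taken from the array design (rn4), and promoters come from RefSeq (GRCr8), in a table that does not hold every gene.

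Replicate numbers were checked as pairs: the deviations of LPS-G2 and LPS-G0 arrays of the same number correlated at 0.139, -0.273, -0.0152 and 0.0247, so the numbers were not used as pairs. Alternatives changed the scale, background correction, centring, filter, arrays in the model, slide, replicate block, weights, variance trend, test and arrays left out.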

Additional observations from a re-analysis of the deposited data

Results flagged for a closer look

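In 208 groups of 4 arrays (94 named genes and the means of 10 gene lists, in LPS-G2 and LPS-G0), the gap between the most extreme array and its neighbour was divided by the range of the group, and 11 exceeded the critical value of Dixon's test for 4 values. Chance flags about 1 in 20 groups.

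In LPS-G0, replicate 2 stood apart for 3 genes: Ube2c (0.916) at -0.02 with the others between 1.11 and 1.21, Pnkd (0.919) at -0.07 with the others between 0.86 and 0.94, and Arpc2 (0.884) at -0.18 with the others between 0.68 and 0.80. The same array stood apart for the chemokine list (0.859), with a mean of 0.09 against -0.20 to -0.16. LPS-G0 replicate 1 stood apart for S100a4 (0.843) at -1.16, the others lying between -0.44 and -0.30. LPS-G0 replicate 3 did so for Gng10 (0.922), at -0.15 against -0.69 to -0.64.

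In LPS-G2, replicate 1 stood apart for Cxcl16 (0.965) at -1.38 against 0.68 to 0.76, for Klrk1 (0.914) at 0.25 against 0.07 to 0.09, and for Tlr13 (0.947) at 0.27 against -0.04 to -0.02. Replicate 3 did so for Il17ra (0.862), at 0.26 against -0.19 to -0.13. Replicate 4 did so for the cytotoxic list (0.842), with a mean of -0.22 against 0.03 to 0.08.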

How the results depend on the processing

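The count of 0 probes called for LPS-G2 against LPS-G0 held in every alternative but one. With dim probes kept in, 1 was called, a probe without a gene name that was dim on all LPS-G2 arrays and had a ratio of 0 on 6 arrays. For LPS-G2 against LPS-G1 the count was 0 in every alternative. For the interaction it was 0 in all but one, and without C-G0 replicate 4 it was 1, Rmnd5a (1.92, limma adjusted p = 0.0177). Leaving out single arrays thus gave a range of 0 to 1. The 23 probes at an unadjusted p under 0.05 and 2-fold became 4 with normexp and loess, 305 without a filter, 6 with all 8 arrays bright, 38 with array weights, 10 with the methods' analysis of variance and Tukey's HSD, and 42 without both LPS-G0 arrays of conflicting labels. Leaving out single arrays gave 24 to 33. The filters change the number of probes tested, and for the other changes the cause was not tested. Some named genes changed direction within a slide: Cat (0.14), Cxcl16 (-0.19) and Ptp4a2 (-0.000138) within slide 1, and Gabarapl1 (0.16), Isg15 (0.0822), Ncf1 (-0.11), Ndufa2 (-0.0891), RT1-Db1 (-0.0878) and Slc24a5 (0.64) within slide 2. With Cy3 alone Hspa12a (0.11) and She (0.26) changed direction. With the replicate number as a block (the numbers did not pair the arrays), limma called 0 probes in each comparison, and the 23 probes stayed 23 (9 higher and 14 lower, with a lowest adjusted p of 0.0727). Of the alternatives of single genes, with the differences within slides, 4233 stayed within the SD between rats of their main value. Another 246 moved further and 11 changed direction. A change of direction was counted only for genes at an unadjusted p under 0.05 in the main fit. Sign changes of other genes are not among the 11, and Usp6nl, for example, kept its direction in 14 of 20 alternatives. Signal over background sets the depth here, and an array whose ratio was deposited as 0 for a dim probe carries no difference for it.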
